A study of Mus musculus with 9 samples.

Results

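The genes described here are 8 markers of bile duct cells and liver progenitors, Sox9, Sox4, Prom1, Tspan8, Epcam, Cd24a, Spp1 and Muc1, taken from a list of symbols. All 8 were found among the 24421 gene symbols measured in each library, and all 8 passed the filter on low values, which asked for 3 or more of the 9 libraries at a log2 value of 4 or above. The libraries came from liver tumors of C57BL/6 mice aged 11 weeks, in 3 groups of 3 tumors: S7HP+Snail (tumors 13, 14 and 15), S7HP (tumors 9, 11 and 12) and LHP (tumors 2, 3 and 6). Column names in the deposited tables tie S7HP to a Smad7 construct and LHP to a Luc (luciferase) construct, each joined to the tag 2A, and S7HP+Snail adds Snail, the transcription factor encoded by Snai1. Smad7 inhibits TGF-β signaling at the receptor, and Luc stands in its place in the control tumors. The letters H and P, shared by all 3 group names, are not spelled out in the labels, which also do not say how the constructs reached the liver or whether each tumor came from its own mouse. P-values therefore measure the spread between these tumors.

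Bile ducts are lined by cholangiocytes, which share with hepatocytes a common embryonic precursor, the hepatoblast. Sox9 marks the ductal plate and adult ducts, and a set of duct-associated surface proteins, among them Epcam, prominin 1 and CD24, is used to sort liver cells with progenitor properties after injury. Several of the same genes are switched on in liver cancers, where TGF-β, Notch and YAP signals are known to act on them.

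Values are log2 of a quantile-normalized 3′ read count plus 1, on a scale on which each library holds between 19910396 and 19911234 normalized counts. The reads behind each library are not preserved. Between 7750 and 8392 symbols were at 0 in a library, and the lowest value above 0 lay between 0.29 and 1.29. Among these tumors S7HP+Snail tumor 14 stood apart from the other S7HP+Snail tumors for several of the markers, and each such result is given by tumor. Snai1 itself averaged 8.10 ± 0.69 in S7HP+Snail tumors, 6.48 ± 0.39 in S7HP tumors and 10.69 ± 0.66 in LHP tumors (SD, n = 3 each). The labels do not say whether the Snail construct carries the 3′ end of the mouse gene that the tags read, so these levels do not check the labels.

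Snail binds the E-box CAGGTG, which reads CACCTG on the other strand, and the stretch of 250 bases before the transcription start was searched for it on both strands in the RefSeq promoter table (GRCm38.p6), which held 6 of the 8 genes. The E-box was present in 4 of their 8 start-site windows, against 17.2% of all 32851 windows of the same length. Windows of Epcam and Muc1 held 2 matches each, and 2.06% of all windows held 2 or more. The 4 windows with a match are shown because they carry the sequence that the added factor is known to read, with the E-box in capitals, each 5′ to 3′ and ending at the base before the start.
Epcam (chr17:87635729-87635978, plus strand): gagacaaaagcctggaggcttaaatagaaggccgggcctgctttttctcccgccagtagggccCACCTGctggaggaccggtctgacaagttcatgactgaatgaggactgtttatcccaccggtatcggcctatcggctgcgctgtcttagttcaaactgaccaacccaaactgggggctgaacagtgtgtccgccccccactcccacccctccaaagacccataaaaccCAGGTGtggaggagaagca
Muc1 (chr3:89228806-89229055, plus strand): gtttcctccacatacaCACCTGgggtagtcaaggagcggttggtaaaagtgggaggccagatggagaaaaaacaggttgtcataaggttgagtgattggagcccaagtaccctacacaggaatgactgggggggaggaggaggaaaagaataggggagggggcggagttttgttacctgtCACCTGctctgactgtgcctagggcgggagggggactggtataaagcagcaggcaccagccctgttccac
Prom1 (chr5:44101737-44101986, minus strand): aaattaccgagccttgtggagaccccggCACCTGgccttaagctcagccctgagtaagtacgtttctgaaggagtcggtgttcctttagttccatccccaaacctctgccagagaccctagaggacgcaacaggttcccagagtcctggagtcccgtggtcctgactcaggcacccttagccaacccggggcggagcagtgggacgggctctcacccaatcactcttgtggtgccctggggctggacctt
Spp1 (chr5:104434861-104435110, plus strand): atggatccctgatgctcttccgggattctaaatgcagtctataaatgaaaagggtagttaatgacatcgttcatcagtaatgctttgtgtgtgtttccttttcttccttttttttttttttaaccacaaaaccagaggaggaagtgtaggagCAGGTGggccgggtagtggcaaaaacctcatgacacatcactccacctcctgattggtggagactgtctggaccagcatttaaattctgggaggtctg
The first base of the match lay 187 and 19 bases before the start in Epcam, 234 and 70 in Muc1, 222 in Prom1 and 98 in Spp1. Windows of Tspan8 and Sox4, a second start site of Prom1 and a second one of Spp1 held no CAGGTG or CACCTG. Starts here are those of RefSeq, while the gene positions given below are from GENCODE. By those positions the windows of Prom1 and Tspan8 and the second of Spp1 lie inside the gene. The Sox4 window overlaps the first bases of its gene. The Smad palindrome GTCTAGAC was in 0 of the 8 windows, against 0.167% of all windows, and the shorter Smad motif GTCTG or CAGAC, which can share end letters with an E-box, was in 4 of 8, against 42.2%. A match is a run of letters and not a measured binding site.

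Set against LHP tumors, S7HP tumors had more Prom1 and Tspan8 RNA and less Sox9 and Sox4 RNA. Prom1 rose 27.3-fold and Tspan8 rose 34-fold, while Sox9 fell to 0.274 times and Sox4 to 0.471 times the LHP level. Thus 2 of the 8 markers rose, 2 fell and 4 did not pass (limma, Benjamini-Hochberg adjusted p under 0.05), against 19.0% of all 14215 genes tested that passed in either direction, 9.47% higher and 9.54% lower. The values of the S7HP and LHP tumors did not overlap for 5 of the 8 markers (3 higher, 2 lower), against 42.1% of genes tested (20.9% higher, 21.3% lower). An unadjusted p under 0.05 was reached by 4 of 8, against 34.4%. The median difference over the 8 markers was 0.06 on the log2 scale, beside 0.02 over all genes tested, and the list had no common direction. The count of 4 dropped to 2, the calls of Prom1 and Tspan8, when LHP tumor 2, LHP tumor 3 or S7HP tumor 11 was omitted.

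Between S7HP+Snail and S7HP tumors 0 of the 8 markers were called. In S7HP+Snail tumors, set against S7HP tumors, 0 of 8 passed the limma test, and 0 of 8 had an unadjusted p under 0.05, against 2.30% of genes tested that passed (1.01% higher, 1.29% lower) and 17.8% with such an unadjusted p. Values of the S7HP+Snail and S7HP tumors overlapped for 7 of 8 markers, and 20.5% of all genes tested had groups that did not overlap (9.53% higher, 11.0% lower). The exception was Tspan8, lower in 3 of 3 S7HP+Snail tumors. Set against LHP tumors, Prom1 and Tspan8 rose in S7HP+Snail tumors too (2 of 8 higher, 0 lower, 6 not passing), where 7.22% of genes tested passed (3.35% higher, 3.87% lower). There 3 of 8 had an unadjusted p under 0.05, against 25.1%, and the groups were apart for 3 of 8 (2 higher, 1 lower), against 30.5% (14.7% higher, 15.8% lower). Comparisons with the S7HP group share its 3 tumors, and comparisons with LHP share the 3 LHP tumors, so they are not independent of each other.

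**Figure D1:**
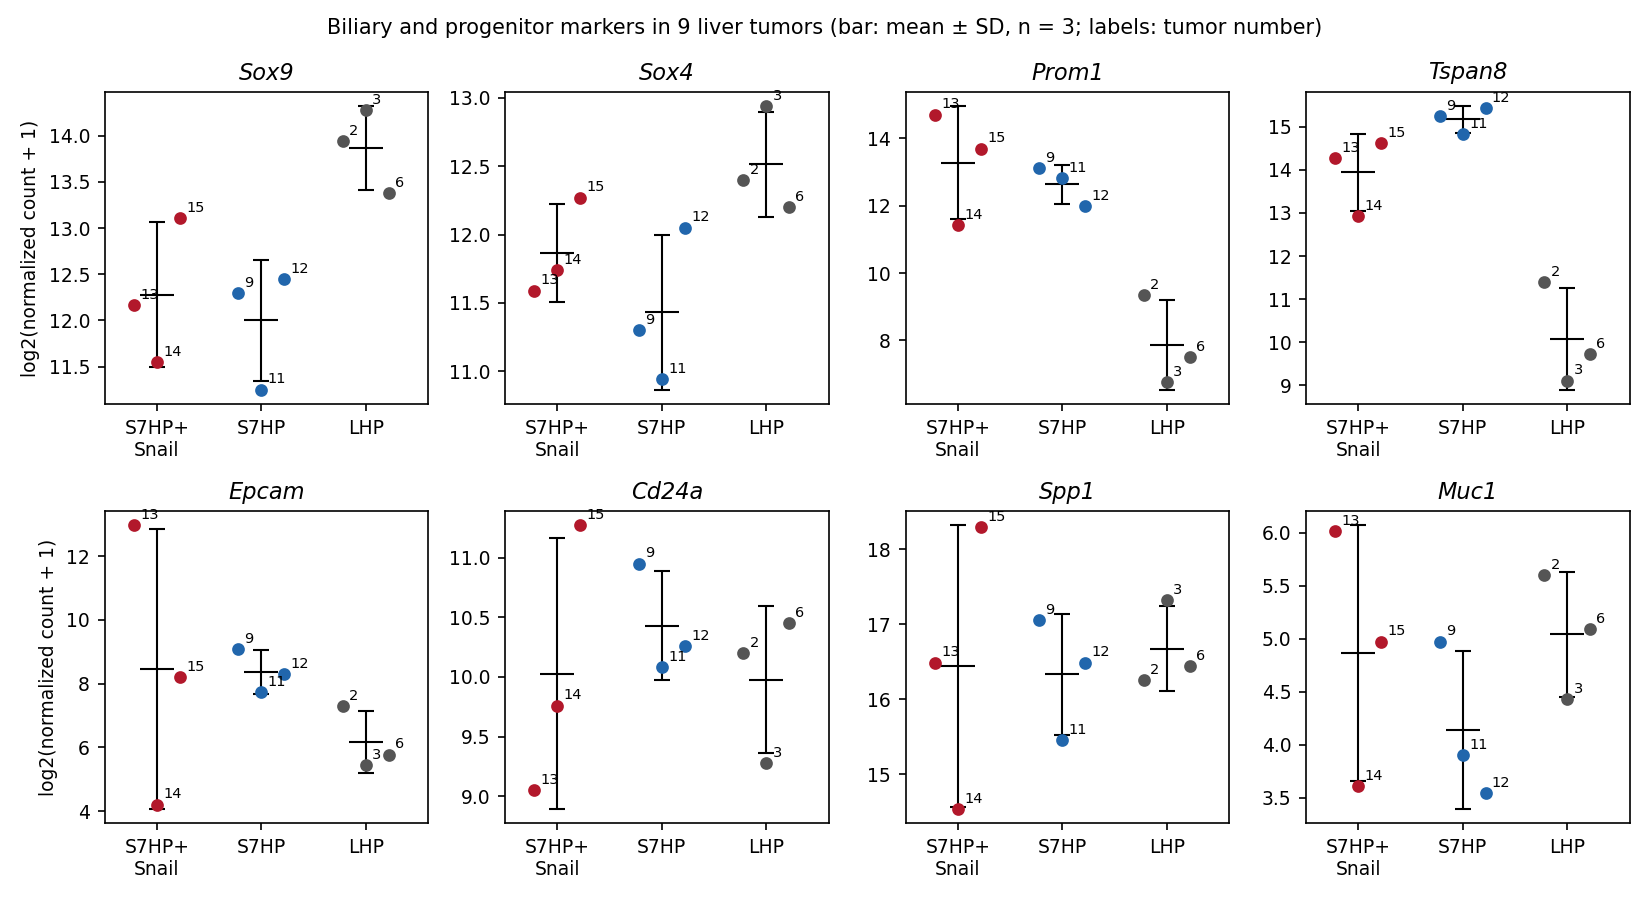
Log2(normalized count + 1) of each marker (vertical axis, 1 panel per gene) in each tumor, by group, with S7HP+Snail in red, S7HP in blue and LHP in grey; points carry tumor numbers, and bars give the mean ± SD over 3 tumors. Prom1 and Tspan8 were lower in all 3 LHP tumors than in any other tumor, Sox9 was highest in the 3 LHP tumors, and Epcam ran from 4.20 to 12.96 within the S7HP+Snail group.

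**Figure D2:**
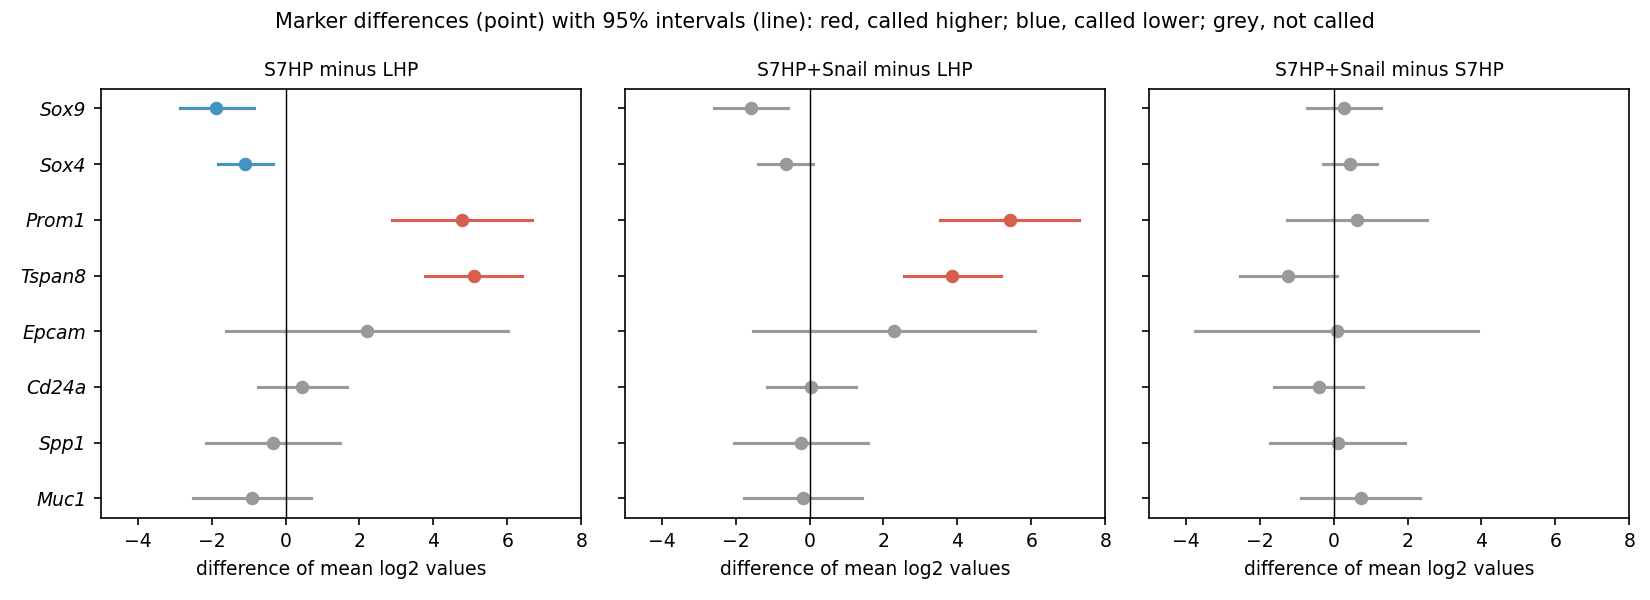
Difference of group means on the log2 scale (horizontal axis) for each marker (vertical axis) in the 3 comparisons, with 95% intervals from limma; red and blue mark differences called higher and lower, grey those not called. In the comparison of S7HP with LHP, Prom1 (4.77) and Tspan8 (5.09) lay right of 0 and Sox9 (-1.87) and Sox4 (-1.09) left of it, and every interval for S7HP+Snail minus S7HP crossed 0.

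Both transcription factors fell in S7HP relative to LHP. Sox9 (GRCm38 chr11:112782224-112787760, plus strand) encodes an HMG-box factor needed for the timing of bile duct formation. Its log2 values were 12.17, 11.55 and 13.11 in S7HP+Snail tumors 13, 14 and 15, then 12.30, 11.25 and 12.45 in S7HP tumors 9, 11 and 12, and 13.94, 14.28 and 13.38 in LHP tumors 2, 3 and 6. Every LHP tumor was above every other tumor, and the S7HP+Snail and S7HP tumors overlapped. The difference of S7HP from LHP was -1.87 ± 0.45 on the log2 scale (SE; limma, Benjamini-Hochberg adjusted p = 0.0194). Omitting LHP tumor 2, LHP tumor 3 or S7HP tumor 11 ended that call, the highest adjusted p being 0.0735 (limma, Benjamini-Hochberg). S7HP+Snail differed from LHP by -1.59 ± 0.45 without passing (limma, Benjamini-Hochberg adjusted p = 0.0618), and passed once S7HP+Snail tumor 15 was left out (adjusted p = 0.03). Between S7HP+Snail and S7HP the log2 difference was 0.28, with a 95% interval from -0.73 to 1.28. In linear terms Sox9 took 0.0537% to 0.1% of the normalized counts in LHP tumors, and no more than 0.0445% in any other tumor.

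Sox4 (GRCm38 chr13:28948919-28953713, minus strand), a single-exon HMG-box factor of the SoxC subgroup and a known TGF-β target, had log2 values of 11.59, 11.74 and 12.27 in S7HP+Snail tumors 13, 14 and 15, of 11.30, 10.94 and 12.05 in S7HP tumors 9, 11 and 12, and of 12.40, 12.94 and 12.20 in LHP tumors 2, 3 and 6. The S7HP tumors lay below the LHP tumors by a gap of 0.15 at the closest, and S7HP+Snail tumor 15 reached into the LHP range. Sox4 fell by 1.09 ± 0.33 in S7HP relative to LHP (SE, log2 scale; limma, Benjamini-Hochberg adjusted p = 0.0462). The call ended when any 1 LHP tumor, S7HP tumor 9, S7HP tumor 11 or S7HP+Snail tumor 13 was omitted, and also with no filter or with plain variances, the highest adjusted p being 0.153 (limma, Benjamini-Hochberg). S7HP+Snail tumors were at -0.65 ± 0.33 relative to LHP, which did not pass (limma, Benjamini-Hochberg adjusted p = 0.254), and at 0.44 relative to S7HP, with a 95% interval from -0.30 to 1.18. Of 12 genes of stellate cells and fibroblasts, the matrix-producing cells of the liver, 5 fell, 0 rose and 7 did not pass in S7HP relative to LHP (limma, Benjamini-Hochberg). Over all genes tested, 9.54% were called lower and 9.47% higher. The summed level of the 12, on the log2 scale, was 14.06 to 14.68 in S7HP+Snail tumors, 13.07 to 13.70 in S7HP tumors and 15.71 to 16.13 in LHP tumors. LHP tumor 6 had the highest sum and the lowest Sox9 of its group, and S7HP+Snail tumor 15 the lowest sum and the highest Sox9. S7HP tumor 11 had the lowest sum, the lowest Sox9 and the lowest Sox4 of its group. The part of these cells in the Sox9 and Sox4 results was not tested. In bulk tumors, fewer cells of a type and less RNA per cell cannot be told apart.

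The surface protein genes Prom1 and Tspan8 had the largest called differences of the 8 markers. Prom1 (GRCm38 chr5:43993620-44102032, minus strand) encodes prominin 1 (CD133), a pentaspan membrane protein of microvilli that is used to sort liver progenitors. Its log2 values were 14.71, 11.43 and 13.70 in S7HP+Snail tumors 13, 14 and 15, against 13.11, 12.82 and 12.00 in S7HP tumors 9, 11 and 12 and 9.35, 6.75 and 7.51 in LHP tumors 2, 3 and 6. Every Smad7 tumor, with or without Snail, was above every LHP tumor. S7HP exceeded LHP by 4.77 ± 0.84 (SE, log2 scale; limma, Benjamini-Hochberg adjusted p = 0.00615), and S7HP+Snail exceeded LHP by 5.41 ± 0.84, or 42.5-fold (adjusted p = 0.00763). Both calls held under all 15 alternatives, the highest adjusted p being 0.0286 and 0.0423 (limma, Benjamini-Hochberg). With Snail added, Prom1 reached 26844 normalized counts in tumor 13 and 13262 in tumor 15 but only 2758 in tumor 14, below all 3 S7HP tumors. The difference between S7HP+Snail and S7HP, 0.64 on the log2 scale, had a 95% interval from -1.25 to 2.53.

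Tspan8 (GRCm38 chr10:115816832-115849893, plus strand) encodes a tetraspanin of epithelial membranes and extracellular vesicles. Its log2 values were 14.28, 12.93 and 14.62 in S7HP+Snail tumors 13, 14 and 15, 15.25, 14.83 and 15.43 in S7HP tumors 9, 11 and 12, and 11.40, 9.11 and 9.73 in LHP tumors 2, 3 and 6. The 3 groups formed an order with no overlap, S7HP highest, S7HP+Snail between and LHP lowest. In S7HP tumors Tspan8 ranked between 31 and 59 among all symbols, in S7HP+Snail tumors between 77 and 386, and in LHP tumors between 1371 and 5285. S7HP exceeded LHP by 5.09 ± 0.59 (SE, log2 scale; limma, Benjamini-Hochberg adjusted p = 0.000977) and S7HP+Snail exceeded LHP by 3.86 ± 0.59, or 14.6-fold (adjusted p = 0.00702), and these 2 calls held under all 15 alternatives. S7HP+Snail was at -1.23 ± 0.59 relative to S7HP, which did not pass (limma, Benjamini-Hochberg adjusted p = 0.318; 95% interval from -2.54 to 0.09). Relative to LHP, 9.47% of all genes tested were called higher in S7HP and 3.35% in S7HP+Snail tumors. Of 14 hepatocyte genes, 6 rose in S7HP and 3 in S7HP+Snail tumors relative to LHP, 0 fell and the others did not pass (limma, Benjamini-Hochberg). Their summed level over 14 genes was 18.37 to 18.88 in S7HP+Snail, 18.64 to 19.83 in S7HP and 16.96 to 17.69 in LHP tumors on the log2 scale, and their part in the Prom1 and Tspan8 results was not tested.

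Epcam varied most of the 8 markers among the S7HP+Snail tumors, but not among the S7HP or the LHP tumors. It (GRCm38 chr17:87635979-87651129, plus strand) encodes an epithelial adhesion molecule found on bile ducts and on hepatoblasts but not on mature hepatocytes. Log2 values were 12.96, 4.20 and 8.19 in S7HP+Snail tumors 13, 14 and 15, 9.09, 7.72 and 8.30 in S7HP tumors 9, 11 and 12, and 7.29, 5.44 and 5.77 in LHP tumors 2, 3 and 6. Among the S7HP+Snail tumors the range was 8.76 on the log2 scale, from 17.3 normalized counts in tumor 14 to 7962 in tumor 13, a 434-fold span that enclosed all 6 other tumors. The SD of 4.39 in that group was exceeded by 0.373% of the genes tested, whose median SD there was 0.45. Each S7HP tumor was above each LHP tumor, and the mean difference was 2.20 ± 1.71 (SE, log2 scale), which did not pass (limma, Benjamini-Hochberg adjusted p = 0.395). The SE pools the spread of all 3 groups, and with only the 6 S7HP and LHP libraries in the fit the same difference passed (limma, Benjamini-Hochberg adjusted p = 0.019). S7HP+Snail relative to S7HP was 0.08, with a 95% interval from -3.74 to 3.90, and it was -2.18 without S7HP+Snail tumor 13 and 2.20 without tumor 14.

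The split between S7HP+Snail tumors 13 and 14 was shared by some other duct genes, chosen here after their values were seen. Keratin 19, Krt19, was at 12.53, 4.35 and 11.29 on the log2 scale in S7HP+Snail tumors 13, 14 and 15, against 10.78, 11.75 and 11.52 in S7HP tumors 9, 11 and 12. Claudin 7, Cldn7, a tight junction protein, was at 11.69, 2.26 and 6.11 in these S7HP+Snail tumors, against 10.16, 10.29 and 11.42 in the S7HP tumors. Tumor 14 was the lowest of the 9 tumors for Epcam, Krt19 and Cldn7. It was the highest of the 9 for the water channel Aqp1, at 14.69, against 8.98 to 10.12 in the 8 other tumors. Keratin 23, Krt23, was also highest in tumor 14, at 11.30, against 6.21 in tumor 13 and 8.94 in tumor 15. The duct genes of tumor 14 were therefore not all low.

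Cd24a (GRCm38 chr10:43578284-43584265, plus strand), which encodes the small glycosylphosphatidylinositol-anchored protein CD24, differed little. Log2 values were 9.05, 9.76 and 11.27 in S7HP+Snail tumors 13, 14 and 15, 10.95, 10.08 and 10.26 in S7HP tumors 9, 11 and 12, and 10.20, 9.28 and 10.45 in LHP tumors 2, 3 and 6. All 3 groups overlapped. The difference was 0.45 ± 0.54 for S7HP from LHP, -0.40 ± 0.54 for S7HP+Snail from S7HP and 0.05 ± 0.54 for S7HP+Snail from LHP (SE, log2 scale), none of which passed (limma, Benjamini-Hochberg adjusted p = 0.594, 0.744 and 0.962). The 95% intervals ran from -0.75 to 1.66, from -1.60 to 0.80 and from -1.15 to 1.26 on the same scale. CD24 is also carried by neutrophils and B cells. Summed neutrophil markers, 6 genes, were at 11.80, 12.82 and 15.00 on the log2 scale in S7HP+Snail tumors 13, 14 and 15, at 13.19, 12.65 and 13.97 in S7HP tumors 9, 11 and 12, and at 13.29, 11.86 and 10.57 in LHP tumors 2, 3 and 6. The order of these sums was that of Cd24a among the S7HP+Snail tumors but not among the S7HP or the LHP tumors. The 4 B cell markers summed to between 0 and 4.97 in the 9 tumors. The part of either cell type in the Cd24a values was not tested.

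Muc1 (GRCm38 chr3:89229057-89233381, plus strand), the transmembrane mucin of duct and gland surfaces, was the lowest of the 8 markers in every group mean. Its log2 values were 6.01, 3.61 and 4.97 in S7HP+Snail tumors 13, 14 and 15, 4.97, 3.90 and 3.54 in S7HP tumors 9, 11 and 12, and 5.60, 4.43 and 5.09 in LHP tumors 2, 3 and 6. These are 10.7 to 63.4 normalized counts, and the groups overlapped. Counted upward from 0 among the distinct values of its library, Muc1 stood at position 8 in S7HP tumor 11 and at position 84 in S7HP+Snail tumor 13, so few reads lie behind it. No difference passed: S7HP was at -0.90 ± 0.72 relative to LHP and S7HP+Snail at 0.73 ± 0.72 relative to S7HP (SE, log2 scale; limma, Benjamini-Hochberg adjusted p = 0.407 and 0.64). Their 95% intervals ran from -2.51 to 0.70 and from -0.87 to 2.33, and the log2 difference of S7HP+Snail from LHP was -0.17, with an interval from -1.78 to 1.43.

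Spp1 (GRCm38 chr5:104435118-104441050, plus strand) encodes osteopontin, a secreted phosphoprotein that ducts, activated macrophages and many tumors release and that signals through Cd44 and integrins. It was the most abundant of the 8 markers in 9 of 9 tumors, with log2 values of 16.49, 14.54 and 18.29 in S7HP+Snail tumors 13, 14 and 15, 17.05, 15.46 and 16.49 in S7HP tumors 9, 11 and 12, and 16.26, 17.32 and 16.44 in LHP tumors 2, 3 and 6. In S7HP+Snail tumor 15 it held 1.61% of all normalized counts and ranked 2 among all symbols, and in tumor 14 it held 0.12%. All 3 groups overlapped. The difference was -0.34 ± 0.81 for S7HP from LHP, 0.11 ± 0.81 for S7HP+Snail from S7HP and -0.23 ± 0.81 for S7HP+Snail from LHP (SE, log2 scale; limma, Benjamini-Hochberg adjusted p = 0.804, 0.965 and 0.882). Their 95% intervals ran from -2.15 to 1.47, from -1.71 to 1.92 and from -2.04 to 1.58. Macrophages also make osteopontin. Their markers, summed over 14 genes, were at 13.41, 14.08 and 13.21 on the log2 scale in S7HP+Snail tumors 13, 14 and 15, at 13.16, 12.92 and 13.22 in S7HP tumors 9, 11 and 12, and at 13.48, 13.50 and 14.06 in LHP tumors 2, 3 and 6. Spp1 was lowest where this sum was highest among the S7HP+Snail tumors. It was lowest where the sum was lowest among the S7HP tumors and among the LHP tumors. The part of macrophages in the Spp1 values was not tested.

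The order of the 8 levels also differed between groups. QuantSeq gives about 1 read per transcript whatever its length, so levels of different genes are set side by side on the log2 count scale. The counting tool and annotation are not known, so genes may differ in the share of their reads that was counted. In S7HP+Snail and S7HP tumors the order of means was Spp1, Tspan8, Prom1, Sox9, Sox4, Cd24a, Epcam and Muc1, while in LHP tumors it was Spp1, Sox9, Sox4, Tspan8, Cd24a, Prom1, Epcam and Muc1. Neighbours such as Sox9 and Sox4 in S7HP tumors (means 12.00 and 11.43, ranges 1.20 and 1.11) and Tspan8 and Cd24a in LHP tumors (10.08 and 9.98, ranges 2.29 and 1.17) were closer than their spread. In LHP tumors Spp1 (mean 16.67, lowest 16.26) stood clear of the next marker, Sox9 (highest 14.28). In S7HP tumors Spp1 (mean 16.34, range 1.59) and Tspan8 (mean 15.17) shared no values but nearly met, at 15.46 and 15.43.

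Of 23 other bile duct genes, 20 passed the filter. In S7HP relative to LHP 5 rose, 0 fell and 15 did not pass (limma, Benjamini-Hochberg). The median log2 difference was 2.38 beside 0.02 over all genes tested, of which 9.47% were called higher and 9.54% lower. The calcium-dependent membrane-binding protein Anxa4 rose by 3.08 ± 0.44 (SE, log2 scale), the duct-forming transcription factors Onecut1 and Onecut2 by 3.85 and 2.46, and Pkhd1, the gene of the cilium protein fibrocystin, by 2.54 (limma, Benjamini-Hochberg adjusted p = 0.00231, 0.00263, 0.0148 and 0.0131). Omitting S7HP tumor 9 ended the call of Pkhd1, and omitting LHP tumor 3 or LHP tumor 6 that of Onecut2, the highest adjusted p being 0.0631 (limma, Benjamini-Hochberg). In S7HP+Snail relative to S7HP 0 of 20 passed the limma test, 6 were lower at an unadjusted p under 0.05 and 0 higher, at a median of -1.09. Relative to LHP, 0 of 20 passed in S7HP+Snail tumors, with 5 higher and 0 lower at an unadjusted p under 0.05. Among all genes tested 2.30% passed in S7HP+Snail relative to S7HP and 7.22% relative to LHP. The summed level of the 23 genes was 14.06 to 15.06 in S7HP+Snail, 14.36 to 14.87 in S7HP and 12.57 to 12.97 in LHP tumors on the log2 scale. Its highest value, in S7HP+Snail tumor 14, was mostly Aqp1 (14.69).

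**Figure D3:**
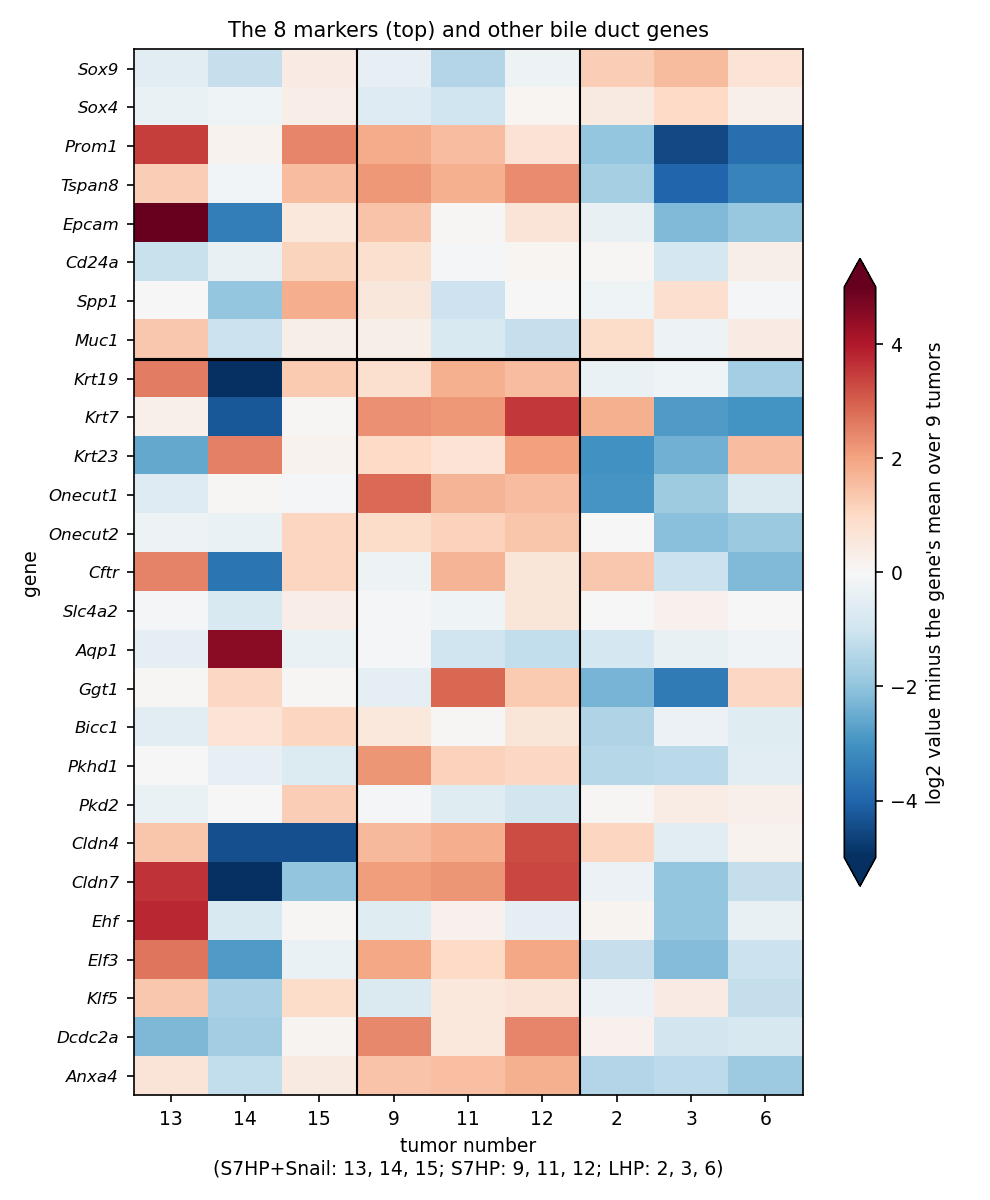
Log2 value minus the gene's own mean over the 9 tumors (color) for the 8 markers and other bile duct genes that passed the filter (rows) in each tumor (columns), with S7HP+Snail left, S7HP in the middle and LHP right; colors saturate at 5. LHP tumors 3 and 6 were low for Prom1, Tspan8, Epcam and Krt7 but high for Sox9, and S7HP+Snail tumor 14 was low for Epcam (4.20), Krt19 (4.35) and Cldn7 (2.26).

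Other hepatoblast and progenitor genes were called in both directions. Of 14 listed, 13 passed the filter. In S7HP relative to LHP 4 rose, 3 fell and 6 did not pass (limma, Benjamini-Hochberg; median log2 difference -0.15). Over all genes tested, 9.47% were called higher and 9.54% lower in this comparison. By adjusted p, rises were led by Afp, the fetal serum protein, at 7.49 ± 0.96 (SE), the heparan sulfate proteoglycan Gpc3 at 3.42 and the homeobox factor Hhex at 1.75, and the adhesion molecule Ncam1 fell by 4.05 ± 0.73 (limma, Benjamini-Hochberg adjusted p = 0.00147, 0.0115, 0.012 and 0.00669). The homeobox gene Prox1 also rose (2.25), and Cd44 (-2.24) and the forkhead gene Foxl1, at a mean of 0.43 in S7HP and 6.43 in LHP tumors, were the other falls. Omitting LHP tumor 2 or S7HP tumor 9 ended the calls of all 3 of these, as did LHP tumor 3 for Cd44 and Foxl1, and LHP tumor 6 or S7HP tumor 12 for Foxl1. In S7HP+Snail relative to S7HP 0 of 13 passed the limma test, with 2 higher and 3 lower at an unadjusted p under 0.05. Among all genes tested 2.30% passed there, and 7.22% passed in S7HP+Snail relative to LHP. Relative to LHP, S7HP+Snail tumors had 3 higher and 2 lower, with Gpc3 at 4.90, Afp at 5.38, Ncam1 at -3.97 the Notch-related surface protein Dlk1 at 5.41 and the TWEAK receptor Tnfrsf12a at -1.43 on the log2 scale. Of these 5, only Gpc3 was called whichever library was omitted, and the highest adjusted p of the other 4 was 0.117 (limma, Benjamini-Hochberg). Omitting LHP tumor 6 ended each of those 4 calls, and omitting LHP tumor 2 (Dlk1, Tnfrsf12a), LHP tumor 3 (Afp, Ncam1, Tnfrsf12a), S7HP tumor 12 (Tnfrsf12a) or S7HP+Snail tumor 13 or 14 (Dlk1, Tnfrsf12a) ended some.

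Genes of the Notch, YAP and TGF-β pathways, members and targets together, were called lower or not at all in S7HP relative to LHP. Of 13, 12 passed the filter, and 4 fell, 0 rose and 8 did not pass (limma, Benjamini-Hochberg; median -0.89). At an unadjusted p under 0.05 by limma, 6 were lower and 2 higher. Over all genes tested, 9.54% were called lower and 9.47% higher in this comparison. The share called was 2.30% in S7HP+Snail relative to S7HP and 7.22% in S7HP+Snail relative to LHP. Jag1, a Notch ligand, fell by 4.49 ± 0.31 (SE, log2 scale), to 9.99, 8.89 and 9.22 in S7HP tumors 9, 11 and 12, against 13.60, 13.93 and 14.02 in LHP tumors 2, 3 and 6 (limma, Benjamini-Hochberg adjusted p = 8.69e-05). The other falls were in Hey1, a Notch target repressor (-3.33), Wwtr1, which encodes the YAP partner TAZ (-1.54), and Rbpj, the DNA-binding Notch effector (-1.25). Omitting LHP tumor 3 or S7HP tumor 11 ended all 3 of these calls. Omitting LHP tumor 2, LHP tumor 6 or S7HP tumor 9 ended those of Wwtr1 and Rbpj, and omitting S7HP+Snail tumor 15 that of Rbpj, the highest adjusted p being 0.137 (limma, Benjamini-Hochberg). With Snail added 0 of 12 passed relative to S7HP by limma, with 1 higher and 0 lower at an unadjusted p under 0.05, and relative to LHP Jag1 was at -4.65 and the TGF-β receptor Tgfbr2 at 1.15. Omitting any 1 LHP tumor, or S7HP+Snail tumor 13 or 15, ended that rise of Tgfbr2, the highest adjusted p being 0.0771 (limma, Benjamini-Hochberg). Whether these genes have a part in the Sox9 and Sox4 results was not tested.

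Over all genes tested, 19.0% passed the limma test in S7HP relative to LHP. Among 10 other Sox genes, 7 passed the filter and 0 passed that test there, with 1 higher and 3 lower at an unadjusted p under 0.05. Sox11, the SoxC relative of Sox4, was the exception once Snail was added. It was at 8.66, 7.52 and 5.51 on the log2 scale in S7HP+Snail tumors 13, 14 and 15, 10.98, 11.78 and 10.24 in S7HP tumors 9, 11 and 12, and 11.86, 11.72 and 12.07 in LHP tumors 2, 3 and 6. Sox11 fell by 3.77 ± 0.68 relative to S7HP and by 4.65 ± 0.68 relative to LHP (SE; limma, Benjamini-Hochberg adjusted p = 0.0262 and 0.00633), and omitting LHP tumor 3, LHP tumor 6 or any 1 S7HP tumor ended the first of these calls (highest adjusted p 0.103). Sox10 was listed at 0 in all 9 tumors.

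Receptors and membrane partners of the surface and secreted markers were called lower or not at all. Of 17, 13 passed the filter. Over all genes tested, 9.54% were called lower and 9.47% higher in S7HP relative to LHP. In this list 5 fell and 0 rose there (limma, Benjamini-Hochberg; median -0.87). They included Cd44, which binds osteopontin and hyaluronan (-2.24), and the integrin genes Itga5 (-3.37), Itga9 (-1.68), Itgb1 (-1.48) and Itgav (-1.04), while Spp1 itself did not pass. Omitting LHP tumor 2 or LHP tumor 3 ended the calls of Cd44 and Itgav, as did S7HP tumor 9 for Cd44 and LHP tumor 6, S7HP tumor 11 or S7HP tumor 12 for Itgav, the highest adjusted p being 0.102 (limma, Benjamini-Hochberg). Relative to S7HP, 0 of 13 passed in S7HP+Snail tumors by limma, with 0 higher and 1 lower at an unadjusted p under 0.05. Among all genes tested 2.30% passed there, and 7.22% passed in S7HP+Snail relative to LHP. Relative to LHP 4 fell in S7HP+Snail tumors, Itga5 (-3.10), Itgav (-1.16), Itgb1 (-1.22) and Itgb3 (-2.22), and omitting LHP tumor 2 or LHP tumor 3 ended each of these calls, the highest adjusted p over the omitted libraries being 0.16 (limma, Benjamini-Hochberg). For the 3 other than Itga5, omitting LHP tumor 6, S7HP tumor 12 or S7HP+Snail tumor 13 or 14 did so too, as did S7HP tumor 11 for Itgb1 and Itgb3 and S7HP tumor 9 for Itgb3.

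**Figure D4:**
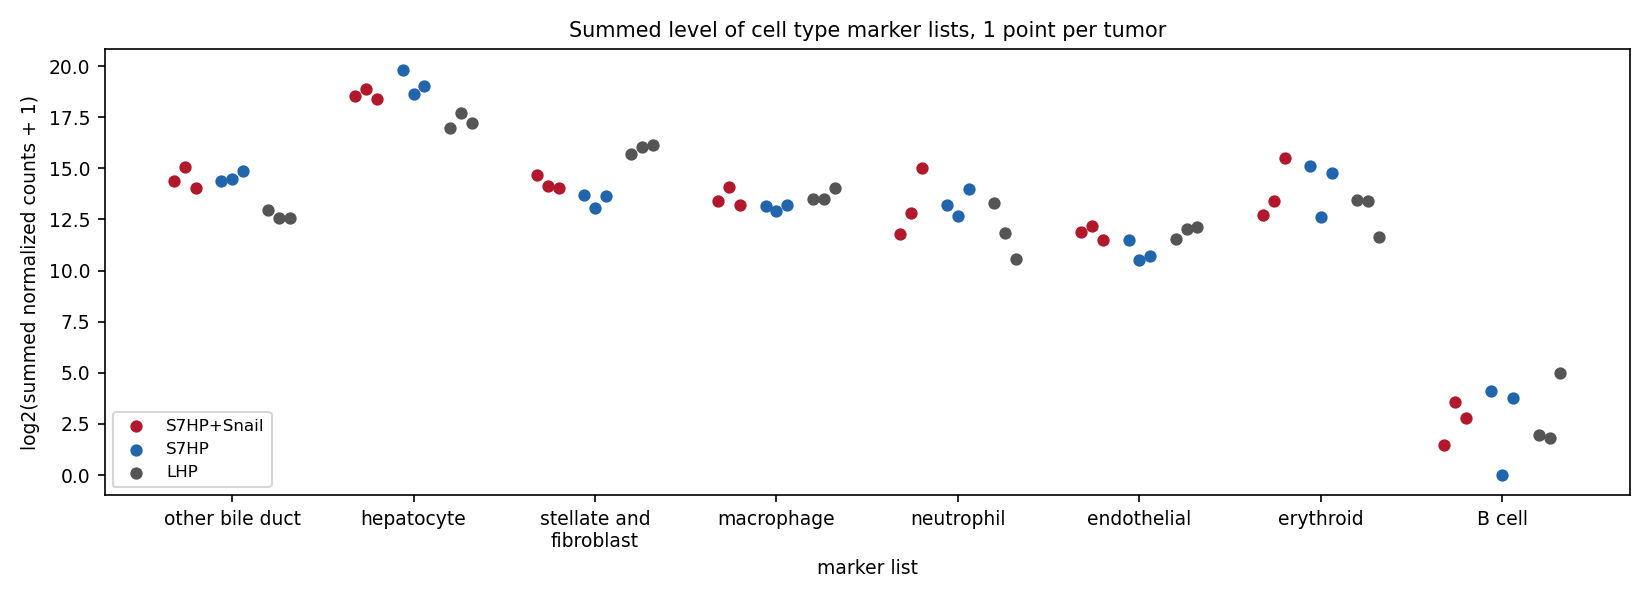
Log2 of the summed normalized counts plus 1 (vertical axis) over the genes of each marker list (horizontal axis), 1 point per tumor, with S7HP+Snail in red, S7HP in blue and LHP in grey. Hepatocyte and other bile duct levels were lowest in the 3 LHP tumors, stellate cell and fibroblast levels were highest there, and B cell markers stayed between 0 and 4.97.

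Marker lists of other cells give the setting of these results. Over all genes tested, 9.47% were called higher and 9.54% lower in S7HP relative to LHP. In S7HP+Snail tumors 2.30% were called relative to S7HP and 7.22% relative to LHP. In S7HP relative to LHP, 6 of 14 hepatocyte genes rose and 0 fell, 5 of 12 stellate cell and fibroblast genes fell and 0 rose, and 1 of 14 macrophage genes (Marco) and 1 of 9 endothelial genes (Plvap) fell, with 0 rising (limma, Benjamini-Hochberg). Of 5 erythroid genes 4 did not pass and 1 rose (Slc4a1). Its mean was 0.50 in LHP tumors, near the floor, and 4.29 in S7HP tumors. Of 6 neutrophil genes 0 passed by limma, with 1 higher at an unadjusted p under 0.05. Of these calls, that of the hepatocyte gene Apoa1 ended when any 1 LHP tumor or S7HP tumor 9 or 11 was omitted, that of the stellate cell gene Des when any 1 LHP or S7HP tumor was omitted, and that of Slc4a1 when LHP tumor 2 or 6 was omitted. In S7HP+Snail relative to S7HP the endothelial gene Plvap was higher (1.45 on the log2 scale), a call that ended when any 1 library other than S7HP+Snail tumor 15 was omitted. By limma 0 genes passed there in the other lists, while at an unadjusted p under 0.05 4 of 14 hepatocyte genes were lower and 4 of 9 endothelial (Plvap included), 1 of 14 macrophage and 2 of 12 stellate cell and fibroblast genes were higher. Relative to LHP, 3 of 14 hepatocyte genes and 1 of 5 erythroid genes rose and 3 of 12 stellate cell and fibroblast genes fell in S7HP+Snail tumors. Omitting LHP tumor 2 or LHP tumor 6 left 1 of the 3 hepatocyte calls (Rbp4) and omitting LHP tumor 3 left 2. The erythroid call (Slc4a1) ended when any 1 LHP tumor or S7HP tumor 11 or 12 was omitted, and that of Acta2 among the fibroblast genes when LHP tumor 3 or 6, S7HP tumor 11 or 12, or S7HP+Snail tumor 14 was omitted. The endothelial list summed to 11.51 to 12.20 in S7HP+Snail, 10.50 to 11.48 in S7HP and 11.53 to 12.12 in LHP tumors, and the erythroid list to 12.73 to 15.48, 12.60 to 15.09 and 11.64 to 13.47 in the same order of groups. No gene of the hepatocyte, macrophage, fibroblast or endothelial lists was at 0 in all 3 tumors of a group.

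Genes whose pattern over the 9 tumors was most like that of a marker were found by the root mean square difference of log2 values after each gene's mean was subtracted. For Sox9 they were Fxyd5, Ltbp1 and Lrsam1, with differences of 0.18, 0.26 and 0.29, where Sox9 itself varied by 0.98 about its mean. Sox4 was closest to Stx7, Txnrd3 and Plscr3 (0.18, 0.20 and 0.20; own variation 0.58). Tspan8 had Gsta4, Hkdc1 and Scn8a as nearest genes, at 0.59, 0.62 and 0.65 against an own variation of 2.28. Prom1 had Sult1c2, Myo7b and Calml4, at 0.93, 0.96 and 0.98 against 2.63. The intestinal-type galectin genes Lgals4 and Lgals6, near-identical copies whose reads may be shared, and Mall came nearest to Epcam, at 0.64, 0.73 and 0.79 against 2.39. Cd24a was nearest to Atp6v1c2, Fam220a and Gdpd3 (0.26, 0.29 and 0.30 against 0.68). For Spp1 (Strn, Il13ra1 and Slc4a3, at 0.50, 0.50 and 0.55 against 1.01) and Muc1 (Scarb2 and Cobl, each at 0.49 against 0.82) the nearest genes differed by 0.49 or more.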

How the data were processed

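The deposited values were 1 table per tumor, on a log2 scale after quantile normalization and addition of 1. This was read from the values: all 9 tables share their highest value, and unlogged values multiplied by 9, the number of libraries, came out whole for 100% of values (tolerance 0.001, wider in proportion for large values). Per the labels' protocols, Trizol was used for RNA, and 500 ng went into each QuantSeq 3′ library. Per the submitters' processing notes, the tools were Bowtie2 and edgeR and the build mm10. The sources used here do not give versions, the counting tool, strand setting or annotation. Quantile normalization makes all libraries alike in distribution, so total depth is lost and a shift of most genes together would not be seen.

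A single limma model (limma 3.58.1, R 4.3.3) covered all 9 libraries, with a mean per group, eBayes with an intensity trend and robust variances, and 6 residual degrees of freedom. The test covered 14215 genes, those reaching a log2 value of 4 in 3 or more libraries. All tests were two-sided, with Benjamini-Hochberg adjustment over all genes tested, and 0.05 was the threshold for a call. A fold change is the antilog of a difference in mean log2 value, and it understates changes of genes near 0. SE is limma's and SD is over 3 tumors. No list was tested as a set. The 8 markers and 12 further lists (141 of 142 entries found) were chosen with earlier results of these data known. Named genes are the 8 markers, up to 4 called genes per list and comparison with the smallest adjusted p, and the 3 genes nearest to each marker, predicted genes passed over. A few genes that this rule or the lists would name are not reported here. For further calls of a list, and for the duct genes of tumor 14, genes were named after their values were seen. The procedure was tested on simulated data. Gene positions are from GENCODE mouse release 21 (GRCm38, the assembly of mm10), and promoters from RefSeq (GRCm38.p6). Alternatives were another filter, none, a pseudocount of 16, equal library medians, plain variances, only the 6 libraries compared, and each library left out. Plots used matplotlib 3.10.9 (Python 3.11.15).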

Additional observations from a re-analysis of the deposited data

How the results depend on the processing

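Of 357 marker values under the 15 alternatives, 329 kept their direction and their side of the threshold, 11 lost the call (8 for Sox4 and 3 for Sox9, S7HP relative to LHP), 2 gained one and 15 changed sign, all of these among differences that did not pass and all when 1 library was left out. Leaving out 1 library moved these differences between -0.57 and 0.54 (Cd24a), -0.75 and 0.45 (Muc1) and -1.16 and 0.72 (Spp1) for S7HP+Snail relative to LHP. For S7HP+Snail relative to S7HP the ranges were -1.02 to 0.09 (Cd24a), -2.18 to 2.20 (Epcam), -0.08 to 1.56 (Prom1), -0.14 to 0.64 (Sox9) and -0.82 to 1.06 (Spp1), and for S7HP relative to LHP -0.70 to 0.10 (Spp1). The number of markers called in S7HP relative to LHP ran from 2 to 4 with 1 library left out. The number of genes called was 2702 for S7HP relative to LHP (1386 to 3154 with 1 library left out), 1026 for S7HP+Snail relative to LHP (240 to 1045) and 327 for S7HP+Snail relative to S7HP (62 to 445). LHP tumors 3 and 6 moved all 3 counts by over 1.5 times when omitted, LHP tumor 2 the first 2, S7HP tumors 9 and 11 the first and the last, and S7HP tumor 12 the last. With only the 6 libraries compared in the fit the 3 counts were 3430, 682 and 120, and 5 markers in place of 4 were called in S7HP relative to LHP. The added marker was Epcam, whose SE in the main fit pools the spread of all 3 groups. The cause of the other changes in these counts was not tested. With the stricter filter Muc1 was not tested. No paired analysis was possible because the groups share no tumor numbers. Few reads limit the values of low genes such as Muc1.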
